A study of Mus musculus with 15 samples.

Results

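The simple epithelial keratins described here are 7 genes, Krt7, Krt8, Krt18, Krt19, Krt20, Krt23 and Krt80, taken as a fixed list of gene symbols from the 34554 features of the files. All 7 were found, and all 7 passed the expression filter that 16462 features passed. The samples were organoids from normal mouse pancreatic ducts, hollow epithelial cultures in Matrigel, in which doxycycline switches on the synthesis of CA19-9, a sialylated Lewis a glycan that mice do not make. Lines A217, A220 and A225 are labelled CA19-9 inducible, and lines A218 and A223 are labelled genetic negative. The alleles behind either label are not named in the labels. Each line was sampled without doxycycline (0 h) and after 4 h and 24 h at 1 µg/ml, which gave 15 libraries, 1 per line and time, with 3 inducible and 2 negative lines at each time. Cultures were harvested together after their medium had been renewed at the same time, so both genotypes received doxycycline and the 0 h cultures are controls for the drug as well as for CA19-9. The sequences of the activator rtTA3 and the red fluorescent protein mKate2 were present in all 15 libraries. The age, sex and strain of the donor mice, the number of mice behind the 5 lines and the promoter of each transgene are not given in the sources used here. Without pairing of lines, the p-values below measure the spread between these lines. With the line as a replicate block, they measure the spread between lines in their changes over time. How either relates to the spread between mice cannot be told from these sources.

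Keratins are the intermediate filament proteins of epithelial cells. A filament is built from heterodimers, each of 1 acidic type I chain and 1 basic type II chain, and an unpaired chain is degraded, so a cell needs both types. Krt8 (type II) and Krt18 (type I) are the first pair made in simple, single-layered epithelia, and pancreatic acinar cells rely largely on them. Duct cells add Krt7 (type II) and Krt19 (type I), both used as duct markers. Krt20 (type I) is known from differentiated cells of the gut and urothelium, Krt23 (type I) from stressed liver and several carcinomas, and Krt80 (type II) from differentiating epithelia.

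Library totals of estimated counts lay between 47915632 and 59411540, and all 12 pairs of libraries within groups differed beyond counting noise. The induced EGFP sequence followed the labels, at 303 ± 40.6 CPM (estimated counts scaled to library size with TMM; SD, n = 3) in inducible lines at 4 h and at most 0.345 CPM in any negative library. Of 12 duct markers, all passed the expression filter. So did 3 of 9 acinar, 1 of 8 islet, 4 of 8 fibroblast, 4 of 8 immune and 2 of 5 endothelial markers. Defining markers of other cells were at 0 in every library (Cpa1 and Ptf1a of acinar cells, Ins1, Ins2, Gcg and Ppy of islets, Adgre1 of immune cells, Emcn of endothelium). The summed TPM (a transcript's length-corrected share of its library) of the whole duct list was 5028 to 6974, though Cftr was at 0.233 to 0.914. The sums of the other lists were 1.59 to 3.20 for acinar cells, 0.198 to 0.711 for islets and 0.130 to 2.51 for fibroblasts. They were 2.35 to 3.44 for immune cells and 2.52 to 5.04 for endothelium. A list of 9 intestinal and gastric genes was higher than these, at 224.6 to 457 TPM. Vil1 (93.1 to 149 TPM), Lgals4 (42.9 to 194), Tff1 (11.3 to 99.6), Tff2 (12.5 to 37.3) and Cdx2 (8.35 to 17.3) were present in every library. Cdx1 and Gkn1 were at 0, and Muc2 and Muc5ac reached at most 0.287 and 0.0067 TPM.

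The members lie in the 2 keratin clusters of the mouse genome (GRCm38 coordinates). On chromosome 15, Krt80 (ENSMUSG00000037185.9, 101347444 to 101370162, minus strand) and Krt7 (ENSMUSG00000023039.17, 101411043 to 101430313, plus strand) point away from each other, with starts 40.9 kb apart and 0 genes between them. Genes between members were counted only among the 34554 features and only where they lie wholly in the gap. Genes that overlap a member were thus not counted. Krt8 (ENSMUSG00000049382.10, 101996698 to 102004482, minus strand) and Krt18 (ENSMUSG00000023043.7, 102028180 to 102032027, plus strand) also point away from each other, with starts 23.7 kb apart and 0 genes between them. Krt18 is a type I gene inside the type II cluster. On chromosome 11, Krt20 (ENSMUSG00000035775.2, 99428403 to 99438150), Krt23 (ENSMUSG00000006777.7, 99477974 to 99493137) and Krt19 (ENSMUSG00000020911.14, 100140810 to 100148665) all lie on the minus strand. Krt20 and Krt23 have 0 genes between them, and 64 lie between Krt23 and Krt19, among them other keratins. Annotated genes on the other strand overlap Krt7 (Gm671), Krt8 (Gm36026) and Krt80 (Gm35853 and Mir1941). This overlap is of whole gene spans, and shared exon sequence was not checked. A strand setting of the counting is not stated in the labels. Reads from any stretch that is shared may therefore not be told apart from those of the keratin.

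The sequence before the start is shown for Krt8 and Krt18, the chains whose levels moved together most closely below. Sequences are from RefSeq (GRCm38.p6), whose table of promoters, 250 bases before to 50 bases after each start, matched 5 of the 7 members (Krt7, Krt8, Krt18, Krt20 and Krt23). The stretches lie upstream of both the RefSeq and the GENCODE start, at chr15:102004483-102004592 on the minus strand for Krt8 and chr15:102027966-102028179 on the plus strand for Krt18. Capitals mark the GATA-type motif AGATAA, and the short box CACCC, which is read on the other strand in Krt8.
Krt8: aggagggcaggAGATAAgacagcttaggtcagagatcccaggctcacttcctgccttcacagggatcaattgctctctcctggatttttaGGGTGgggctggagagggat
Krt18: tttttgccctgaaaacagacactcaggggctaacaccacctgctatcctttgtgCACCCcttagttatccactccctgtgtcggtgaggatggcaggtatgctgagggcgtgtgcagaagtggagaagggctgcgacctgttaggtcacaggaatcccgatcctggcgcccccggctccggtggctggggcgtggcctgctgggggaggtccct

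Another sequence is shown for Krt20, the member that differed most between lines, where TATAAA (capitals) begins 29 bases before the RefSeq start (chr11:99438165-99438194, minus strand).
Krt20: tctcttgaactcTATAAAaggtcatctcca

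Motifs were searched on both strands in the whole 300-base windows, with the sequences in view, and the shares below are of all 27025 promoters in the table. TATAAA was in the windows of Krt20 and Krt8 and in 14.2% of all promoters. In Krt8 its 2 matches overlap each other at the RefSeq start, which lies 140 bases inside the GENCODE transcript. CACCC was in 4 of the 5 members (Krt7, Krt8, Krt18 and Krt20) and in 56.7% of all promoters. AGATAA was in Krt8 and Krt20 and in 11.4% of all promoters. The GC box GGGCGG was in Krt7, with 4 matches, and in 35.9% of all promoters. Neither CCAAT (37.9% of all promoters) nor the AP-1 site TGANTCA (7.93%) was in the windows of the 5 members. These are letter matches in short windows and say nothing of binding.

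Levels were compared between genes per length, as deposited TPM summed per gene. Krt18 had the highest mean level, 4492 ± 906 TPM (SD, n = 15 libraries), and Krt8 followed at 3961 ± 801 TPM. Krt19 stood at 1978 ± 231 TPM and Krt7 at 952 ± 164 TPM. The other 3 members were far lower, with Krt23 at 57.0 ± 11.8 TPM, Krt20 at 21.6 ± 11.4 TPM and Krt80 at 9.10 ± 1.47 TPM. These SDs run over all lines and times.

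This order held in 15 of 15 libraries. The closest neighbours were Krt18 and Krt8, whose TPM ratio was 1.06 to 1.19, so their ranges over libraries overlapped although Krt18 was the higher in each library. Krt8 was 1.53 to 2.41 times Krt19, and Krt19 was 1.84 to 2.72 times Krt7. The widest step was from Krt7 to Krt23, 11.1 to 24.8 times. Krt20 stood above Krt80 by 1.15 to 5.77 times, and Krt23 above Krt20 by 1.41 to 5.10 times. The plot of keratin levels per length shows this step between the 4 abundant chains and the rest.

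**Figure D1:**
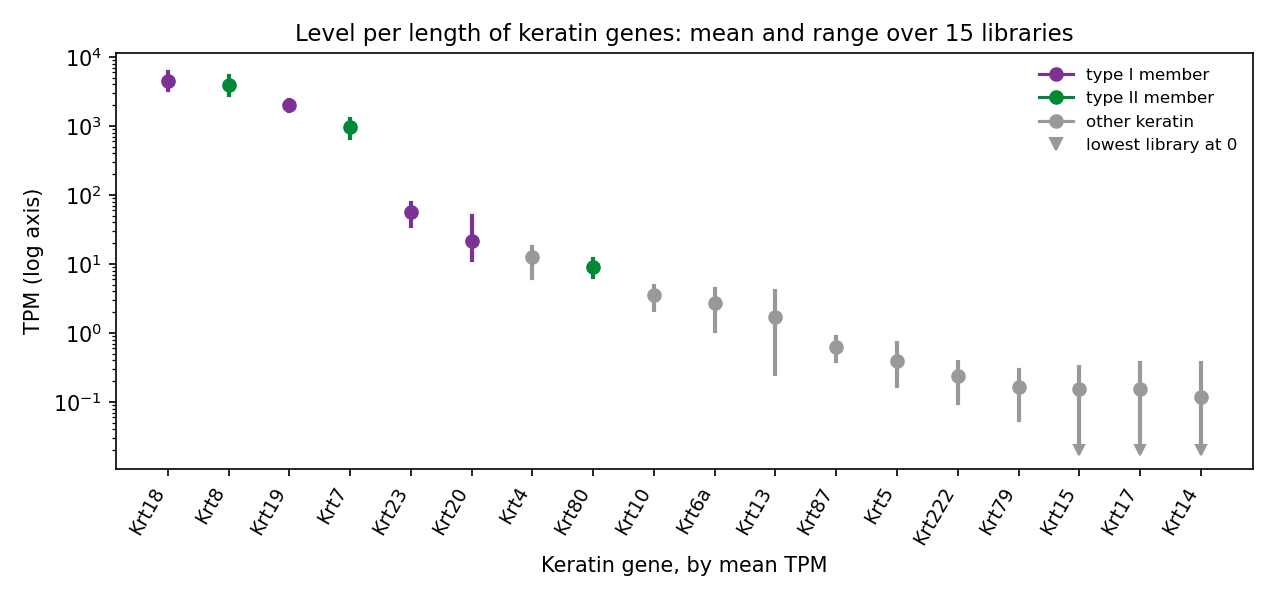
Level per length of each keratin gene with a mean of at least 0.1 TPM, on a log axis. Points are means and bars the lowest to highest of 15 libraries; the members are coloured by type, and the means of all but Krt80 lie above that of the highest other keratin, Krt4, at 12.6 TPM.

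The 7 members held 99.7 to 99.9% of the TPM of all 53 protein-coding keratin genes in the files. Of the 46 other keratins, 13 passed the filter, 11 had 0 counts in all libraries and 4 reached a mean of 1 TPM. Those 4 were Krt4 (12.6 TPM) and Krt13 (1.70 TPM), a pair of mucosal keratins, Krt10 of keratinizing epidermis (3.52 TPM) and Krt6a of activated keratinocytes (2.68 TPM). The basal keratins Krt5 and Krt14 averaged 0.390 and 0.117 TPM.

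Summed over the members, type I chains exceeded type II chains in every library. The type I sum ranged from 4993 to 8569 TPM and the type II sum from 3707 to 6531 TPM. Their ratio stayed between 1.28 and 1.40. In inducible lines it averaged 1.38 ± 0.024 before doxycycline, 1.33 ± 0.037 after 4 h and 1.30 ± 0.016 after 24 h (SD, n = 3). In negative lines it was 1.37 ± 0.022, 1.33 ± 0.026 and 1.30 ± 0.023 (n = 2). Each of the 5 lines had its highest ratio at 0 h and its lowest at 24 h. Krt8 and Krt18 together made up 68.4 to 76.6% of the members' TPM.

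**Figure D2:**
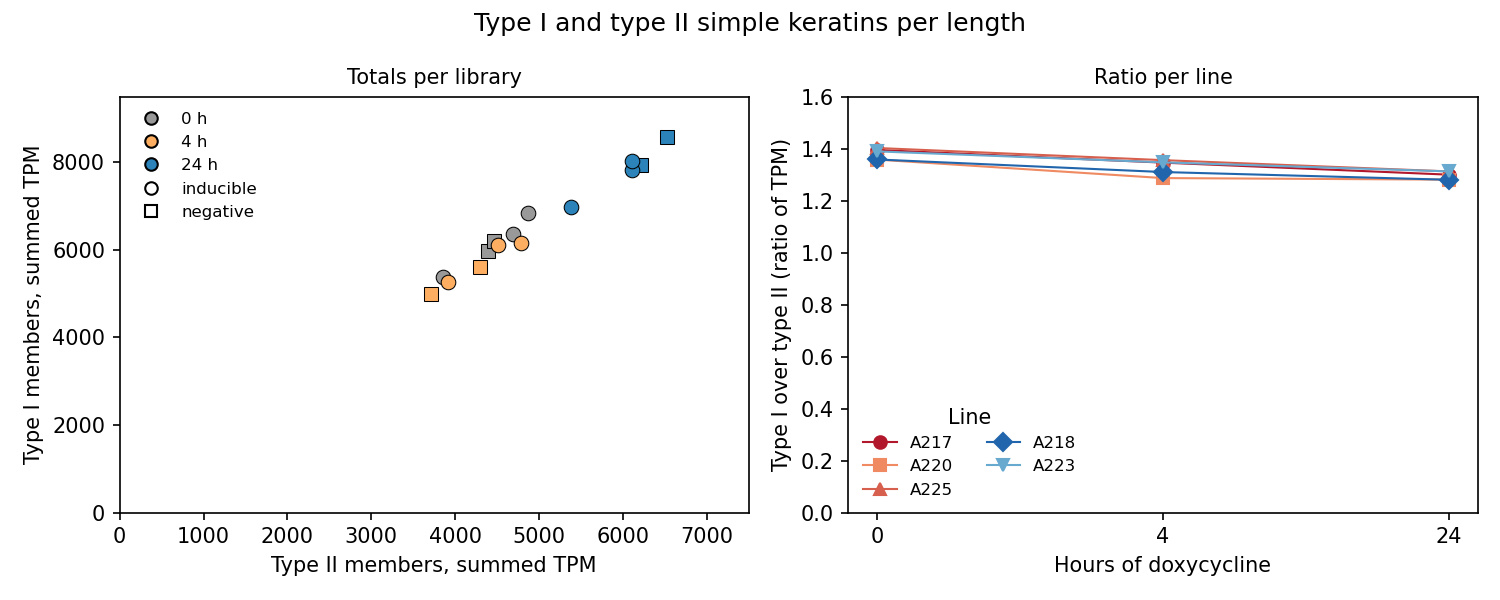
Left, summed TPM of the 4 type I members against that of the 3 type II members in each library, coloured by hours of doxycycline, with circles for inducible and squares for negative lines. Right, the ratio of these sums in each line, with the hours evenly spaced, which lies between 1.28 and 1.40 and is lowest at 24 h in all 5 lines.

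After 24 h of doxycycline the primary pair Krt8 and Krt18 was higher in both genotypes. Krt8 rose 1.36-fold in inducible and 1.58-fold in negative lines, and Krt18 rose 1.33-fold and 1.54-fold. Krt7, Krt19, Krt20 and Krt23 were higher at 24 h than at 0 h in 5 of 5 lines too, by less or with more spread, and Krt80 was not. At 4 h none of the 7 passed in the fit without pairing of lines. No member passed the test in any comparison of inducible with negative lines. Both genotypes received the drug, so changes seen in both went with doxycycline in these cultures. In bulk RNA, a change in the mix of cells and a change in RNA per cell cannot be told apart.

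The counts of members called, at an adjusted p below 0.05 in edgeR's quasi-likelihood test, were as follows. The members were chosen with earlier results of these data known, so setting them beside all features is a description. In inducible lines at 24 h it called 2 of 7 members, against 4.93% of all features tested. In negative lines at 24 h it called 2 of 7, against 3.8%. For the mean response of both genotypes at 24 h it called 3 of 7, Krt8, Krt18 and Krt23, all higher, against 18.7% of all features. At 4 h it called 0 of 7 in inducible lines, in negative lines and in the mean of both, where the shares of all features were 0.298%, 0.121% and 0.911%. At an unadjusted p below 0.05 these 4 h counts were 1, 2 and 2 of 7. The median log2 change of the members at 24 h was 0.32 in inducible and 0.37 in negative lines, while that of all features was 0.00 and 0.01.

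Each line was sampled at all 3 times, so a fit in which the line is a replicate block compares times within lines. With it 5 of 7 members were called at 24 h in inducible lines (24.2% of all features), Krt7, Krt8, Krt18, Krt20 and Krt23. In negative lines 5 of 7 were called (22.5% of all features), Krt7, Krt8, Krt18, Krt19 and Krt23. For the mean of both genotypes 6 of 7 were called, all but Krt80 (36.1% of all features). At 4 h the block fit called Krt23 as lower in inducible lines (3.05% of all features) and in negative lines (2.04%), and Krt23 and Krt19 as lower in the mean of both (8.67%).

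**Figure D3:**
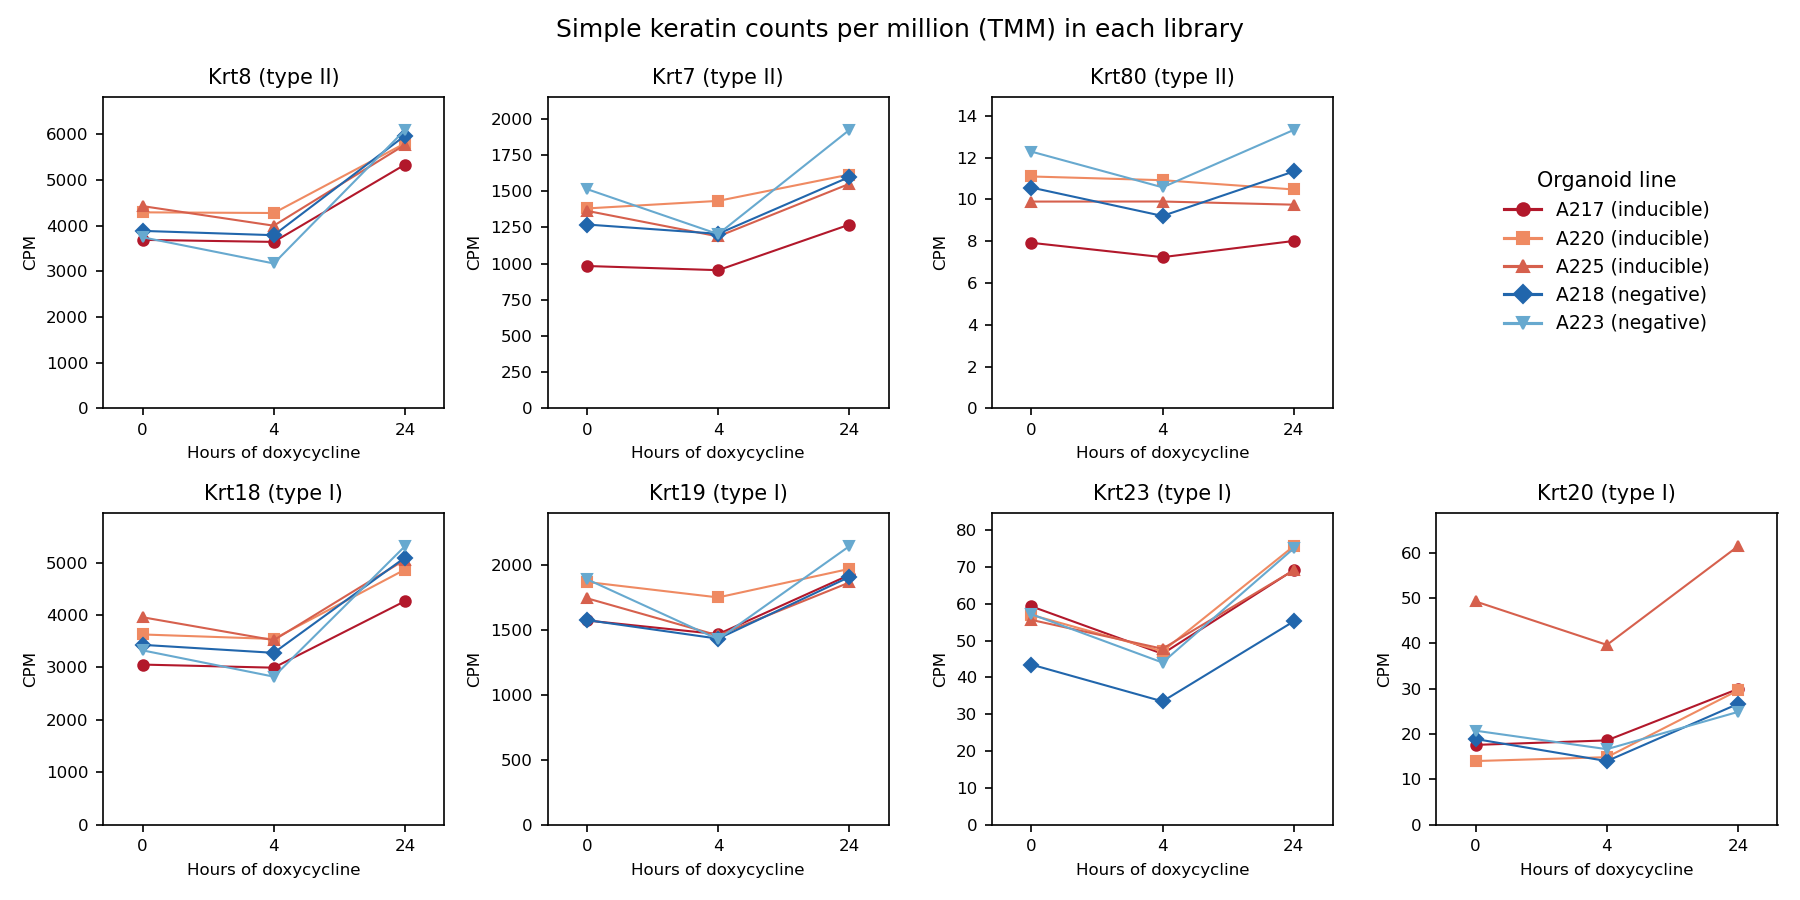
Level in CPM (TMM scaling, axes from 0) of each member in each library, at 0, 4 and 24 h of doxycycline; lines join the libraries of 1 organoid line, red for inducible and blue for negative. Krt8 and Krt18 lie highest at 24 h in all 5 lines, and line A225 stands apart for Krt20.

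Krt8, the type II chain of the primary pair, stood at 3688, 4291 and 4427 CPM at 0 h in the inducible lines A217, A220 and A225. It was at 3643, 4276 and 3998 CPM at 4 h and at 5336, 5801 and 5771 CPM at 24 h. In the negative lines A218 and A223 it was at 3885 and 3745 CPM at 0 h, 3790 and 3171 at 4 h, and 5970 and 6095 at 24 h. Every 24 h library lay above every 0 h and 4 h library, while 0 h and 4 h overlapped. The log2 change at 24 h was 0.45 ± 0.09 in inducible lines (SE; edgeR adjusted p = 0.0142) and 0.66 ± 0.11 in negative lines (edgeR adjusted p = 0.00702). For the mean of both it was 0.55 ± 0.07 (edgeR adjusted p = 0.000323). The call in inducible lines ended without the 0 h library of A217 (adjusted p = 0.0676), the 24 h library of A220 (0.0658) or that of A225 (0.063), and in a fit of those 2 groups alone (0.0963). In negative lines it ended without the 0 h library of A218 (0.0758), that of A223 (0.0869) or the 24 h library of A223 (0.0724). The call on the mean of both genotypes held without any 1 library.

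Krt18, its type I partner, stood at 3053, 3627 and 3956 CPM at 0 h in A217, A220 and A225. The values were 2994, 3542 and 3519 CPM at 4 h and 4264, 4866 and 5054 CPM at 24 h. In A218 and A223 they were 3429 and 3324 CPM at 0 h, 3277 and 2822 at 4 h, and 5095 and 5312 at 24 h. As for Krt8, all 24 h libraries lay above all earlier ones. The log2 change at 24 h was 0.42 ± 0.10 in inducible lines (edgeR adjusted p = 0.0394), 0.62 ± 0.13 in negative lines (0.0189) and 0.52 ± 0.08 in the mean of both (0.00135). The call in inducible lines ended without the 0 h library of A217 (adjusted p = 0.15) or A220 (0.0869) or the 24 h library of A220 (0.126) or A225 (0.159), and in a fit of those 2 groups alone (0.153). In negative lines it ended without any 1 of the 4 libraries compared, at adjusted p-values of 0.128 and 0.0913 for A218 (0 h and 24 h) and 0.158 and 0.144 for A223. The call on the mean held without any 1 library.

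Krt8 and Krt18 had nearly the same profile over the 15 libraries. The root mean square difference between their log2 CPM values, each centred on its mean, was 0.05, against a median of 0.30 between Krt8 and 9059 other features. The change from 0 to 24 h in a line was 0.38 to 0.70 for Krt8 and 0.35 to 0.68 for Krt18 (log2). For both it was smallest in A225 and largest in A223.

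Krt19, the type I duct marker, stood at 1570, 1866 and 1741 CPM at 0 h in A217, A220 and A225. It was at 1464, 1747 and 1454 CPM at 4 h and at 1919, 1966 and 1862 CPM at 24 h. In A218 and A223 it was at 1573 and 1887 CPM at 0 h, 1430 and 1425 at 4 h, and 1904 and 2141 at 24 h. All 5 lines were lower at 4 h than at 0 h and higher at 24 h, yet the inducible groups at 0 h and 24 h overlapped. The mean change at 24 h was 0.19 ± 0.07 (log2; edgeR adjusted p = 0.0878, and 0.00305 with the replicate block). At 4 h it was -0.21 ± 0.07 (edgeR adjusted p = 0.232, and 0.00791 with the block). Within negative lines the 24 h change of 0.23 passed with the block alone (edgeR adjusted p = 0.0238). In inducible lines 0.15 did not pass in either fit (edgeR adjusted p = 0.361, and 0.0512 with the block).

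Krt7, the type II duct marker, stood at 983, 1380 and 1364 CPM at 0 h in A217, A220 and A225. It was at 954, 1432 and 1187 CPM at 4 h and at 1269, 1614 and 1550 CPM at 24 h. In A218 and A223 it was at 1269 and 1514 CPM at 0 h, 1205 and 1203 at 4 h, and 1598 and 1923 at 24 h. A217 was the lowest line at each time, and its 24 h library lay below the 0 h libraries of the other inducible lines. The mean change at 24 h was 0.29 ± 0.13 (log2; edgeR adjusted p = 0.124), and with the replicate block 0.30 ± 0.05 (edgeR adjusted p = 0.000199). With the block it was also called in inducible lines (0.26, edgeR adjusted p = 0.00545) and in negative lines (0.34, edgeR adjusted p = 0.00405).

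Krt23 stood at 59.3, 57.0 and 55.6 CPM at 0 h in A217, A220 and A225. It was at 46.4, 47.1 and 47.8 CPM at 4 h and at 69.2, 75.6 and 69.1 CPM at 24 h. In A218 and A223 it was at 43.5 and 57.2 CPM at 0 h, 33.5 and 44.0 at 4 h, and 55.2 and 75.0 at 24 h. In inducible lines the 3 times did not overlap, with 4 h lowest and 24 h highest; in negative lines A218 lay below A223 at each time, 0 h overlapped both other times, and 24 h lay above 4 h. The mean change at 24 h was 0.34 ± 0.10 (log2; edgeR adjusted p = 0.0291). That call ended without any 1 of 7 of the 10 libraries compared, at adjusted p-values of 0.0505 to 0.172. These were A217 (0 h), A220 (0 h and 24 h), A225 (0 h and 24 h), A218 (0 h) and A223 (24 h). Without the 24 h library of A223 the change was 0.22, the lowest of these.

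The 4 h decrease of Krt23 was the one 4 h change called in each genotype with the replicate block. It was -0.28 ± 0.05 in inducible lines (log2; edgeR adjusted p = 0.00405 with the block, 0.628 without) and -0.38 ± 0.06 in negative lines (0.00381 and 0.689). The mean of both was -0.33 ± 0.04 (edgeR adjusted p = 0.000106 with the block, 0.161 without). The line by line changes from 0 to 4 h spanned -0.38 to -0.22.

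Krt20 stood at 17.6, 14.03 and 49.3 CPM at 0 h in A217, A220 and A225. It was at 18.6, 14.9 and 39.7 CPM at 4 h and at 29.95, 29.6 and 61.5 CPM at 24 h. In A218 and A223 it was at 18.9 and 20.7 CPM at 0 h, 14.02 and 16.7 at 4 h, and 26.7 and 24.9 at 24 h. A225 was higher at each time than any library of the other 4 lines, whose highest value was 29.95 CPM. Of all members Krt20 varied most, 4.38-fold between its highest and lowest library in CPM, against 1.502-fold for Krt19 to 2.26-fold for Krt23. Summed TPM of the intestinal and gastric list was lowest in A225, at 224.6 to 228 against 268 to 457 in the other lines, while that of the fibroblast and stellate list was higher there, at 1.46, 2.51 and 2.32 TPM at 0, 4 and 24 h. In the other lines the fibroblast and stellate sum was 0.130 to 0.374 TPM, apart from A223 at 24 h with 1.38 TPM. The part of either list in the Krt20 level was not tested.

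Within lines, Krt20 was higher at 24 h than at 0 h by 1.20 to 2.11 times. In inducible lines the 24 h change was 0.58 ± 0.46 (log2; edgeR adjusted p = 0.501) and, with the replicate block, 0.69 ± 0.11 (edgeR adjusted p = 0.000502). In negative lines it was 0.38 and did not pass in either fit (edgeR adjusted p = 0.759, and 0.0542 with the block). The mean of both was 0.54 ± 0.09 with the block (edgeR adjusted p = 0.000261). At 4 h Krt20 was lower than at 0 h in A225, A218 and A223 and slightly higher in A217 and A220.

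Krt80, the least abundant member, stood at 7.92, 11.1 and 9.90 CPM at 0 h in A217, A220 and A225. It was at 7.24, 10.9 and 9.90 CPM at 4 h and at 8.01, 10.5 and 9.75 CPM at 24 h. In A218 and A223 it was at 10.6 and 12.3 CPM at 0 h, 9.21 and 10.6 at 4 h, and 11.3 and 13.3 at 24 h. In both genotypes the 0 h values overlapped those of 4 h and of 24 h, while in negative lines both 24 h values lay above both 4 h values. At 24 h 3 of 5 lines were higher than at 0 h. The mean change at 24 h was 0.04 (log2; 95% interval -0.25 to 0.32; edgeR adjusted p = 0.879), and with the replicate block 0.04 (-0.07 to 0.15; adjusted p = 0.601). Krt80 gave 382 to 684 counts per library, against 164561 to 312781 for Krt8.

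**Figure D4:**
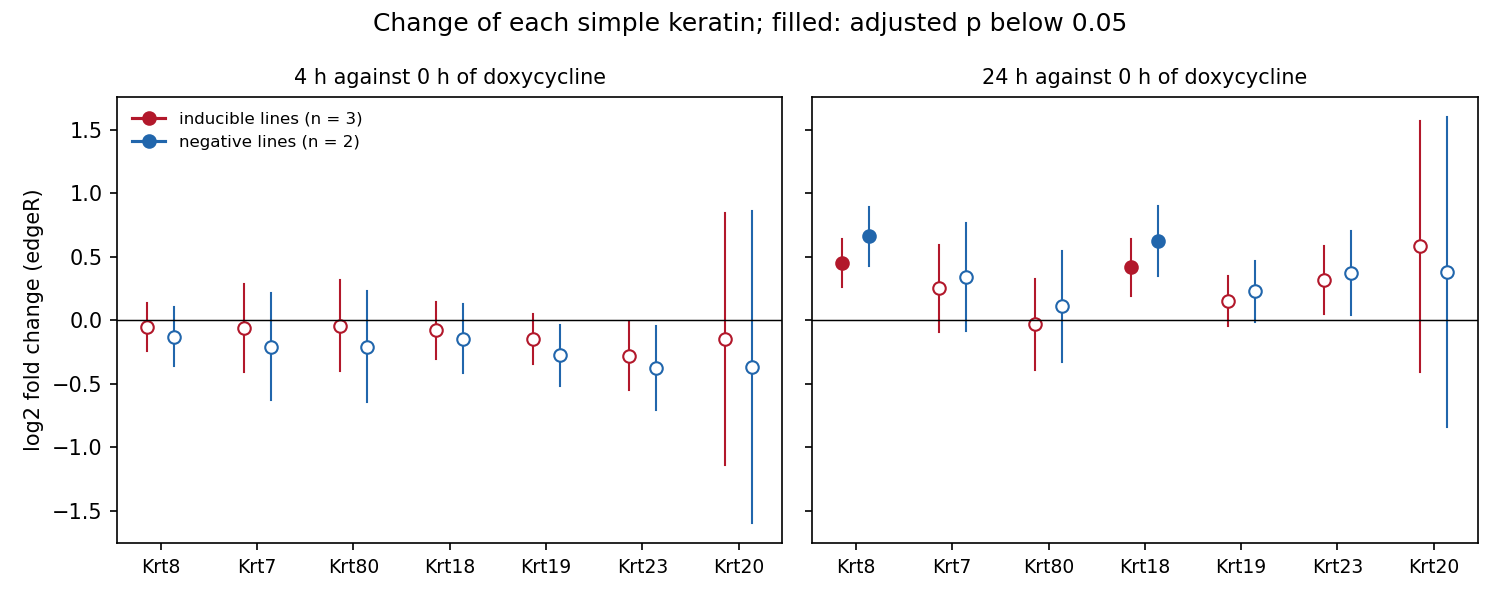
Log2 fold change of each member at 4 h (left) and 24 h (right) against 0 h, from edgeR without the replicate block, with 95% intervals; red for the 3 inducible and blue for the 2 negative lines, filled where the adjusted p is below 0.05. All 7 points of each genotype lie below 0 at 4 h, and the filled points are Krt8 and Krt18 at 24 h.

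The difference between the genotypes' responses was tested directly. None of the 7 members was called at 4 h or at 24 h, where 0.0121% of all features were called in each comparison, and none had an unadjusted p below 0.05. At 24 h the inducible response of Krt8 was 0.21 lower on the log2 scale than the negative one, with an interval of -0.51 to 0.08. For Krt18 the difference was -0.21 (-0.56 to 0.14). With the replicate block these intervals were -0.37 to -0.05 for Krt8 and -0.36 to -0.05 for Krt18, with unadjusted p-values of 0.0141 and 0.0124 and an adjusted p of 0.549 for each (edgeR). In that fit 0.0182% of all features were called at 4 h and 0.0243% at 24 h, and again 0 of 7 members. The interval for Krt20 was the widest, -1.37 to 1.77 without the block. A p above the threshold does not show that the responses were equal.

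Inducible and negative lines were also compared at each time. No member was called at 0 h (0% of all features, 589 of which had an unadjusted p below 0.05), at 4 h (0.0121%) or at 24 h (0.0121%). At an unadjusted p below 0.05 the count was 0 of 7 at each time. The CPM of the genotypes were apart, with no overlap, for 0 of 7 members at 0 h (18.3% of all features), 2 of 7 at 4 h (16% of all features) and 4 of 7 at 24 h (19.7% of all features). At 4 h Krt19 and Krt23 were higher in all 3 inducible than in both negative lines, with log2 differences of 0.12 (-0.10 to 0.35) and 0.28 (-0.02 to 0.59). At 24 h Krt8 and Krt18 were lower in all 3 inducible than in both negative lines, with a log2 difference of -0.10 (-0.31 to 0.11) and -0.14 (-0.39 to 0.11). Krt80 was also lower in all 3, by -0.39 (-0.79 to 0.01; edgeR adjusted p = 0.868). Krt20 was higher in all 3, with a difference of 0.65 (-0.48 to 1.77). At 0 h its sign rested on A225, since without that library the difference was -0.34 in place of 0.45. For Krt19 the 0 h difference was 0.00 (-0.22 to 0.22).

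Of 25 further keratins on a list, 11 were tested, and 0 rose. For the mean of both genotypes at 24 h 1 of 11 fell, against 18.7% of all features called in either direction. It was Krt222, a keratin-like type I gene, which went from 0.538 ± 0.112 to 0.237 ± 0.073 CPM in inducible lines (log2 change of the mean -1.26 ± 0.25; edgeR adjusted p = 0.00507). With the replicate block 4 of 11 fell, Krt222, Krt4, Krt5 and Krt6a, where 36.1% of all features were called in either direction. The median log2 change of the 11 was -0.36, against 0.34 for the 7 members and 0.00 for all features. That median is the value of Krt17, at a mean of 0.149 CPM (edgeR adjusted p = 0.803). Krt5, Krt14, Krt15, Krt17, Krt78, Krt79 and Krt222 averaged only 0.109 to 0.546 CPM, against 10.2 CPM for Krt80, the lowest member. Changes at such levels are imprecise, so the contrast of medians is a description. Summed TPM of the basal and squamous marker list, which holds Krt5, Krt6a, Krt10, Krt13 and Krt14, was 7.07 to 12.2 at 0 h and 4.53 to 10.3 at 24 h. From 0 to 24 h this sum fell in A218, A220, A223 and A225 and rose in A217, from 7.61 to 8.13 TPM.

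Of 13 other intermediate filament genes 10 were tested and 2 fell in the mean of both genotypes at 24 h, both nuclear lamins, a share near the 18.7% of all features called there. Lmnb1, a B-type lamin, went from 131 ± 9.65 to 104 ± 15.8 CPM in inducible lines and from 139 ± 0.169 to 104 ± 1.99 CPM in negative lines (log2 change of the mean -0.38 ± 0.08; edgeR adjusted p = 0.00544). Lmnb2 changed by -0.24 ± 0.08 (0.0485). None of the 10 rose without the replicate block, and their median log2 change was 0.11. With the block 3 fell in that mean, Lmnb1, Lmnb2 and Nes, a filament of progenitor cells, and 1 rose, Nefl, a neurofilament chain, against 36.1% of all features called. With the block Nes also fell in each genotype.

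Plakins and desmosomal proteins tie keratin filaments to cell junctions. Of 20 listed 16 were tested, and in each genotype 3 rose at 24 h, Dsp, Ppl and Perp. The shares of all features called there were 4.93% in inducible and 3.8% in negative lines. Dsp, desmoplakin, which binds keratins at the desmosome, went from 364 ± 15.2 to 569 ± 49.9 CPM in inducible lines (SD, n = 3; log2 change 0.65 ± 0.07; edgeR adjusted p = 0.000325). In negative lines it went from 379 ± 12.4 to 543 ± 49.4 CPM (n = 2; 0.52 ± 0.09; 0.00739). Ppl, periplakin, changed by 0.79 ± 0.12 (edgeR adjusted p = 0.00346) and 0.78 ± 0.15 (0.0125), and Perp, a desmosomal membrane protein, by 0.75 ± 0.16 (0.021) and 0.78 ± 0.20 (0.0462). In the mean of both genotypes, with 18.7% of all features called, 5 of 16 rose and 1 fell, Itga6, an integrin of hemidesmosomes, by 0.22 on the log2 scale (edgeR adjusted p = 0.00755). With the replicate block 8 of 16 rose and 2 fell in that mean, where 36.1% of all features were called. At 4 h 0 of 16 passed without the block; with it Dst, a plakin of hemidesmosomes, was higher in inducible lines and in the mean of both, and Itgb4 lower in the mean of both.

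Of 14 proteins known to bind or modify keratins, all tested, 2 rose at 24 h in each genotype and 0 fell. Of all features, 4.93% were called in inducible and 3.8% in negative lines. In the mean of both genotypes 2 of 14 rose and 0 fell, where 18.7% of all features were called. With the replicate block 4 of 14 rose and 0 fell in that mean, where 36.1% of all features were called. Hspb1, a small heat shock protein that associates with keratin filaments, went from 5.74 ± 1.96 to 17.3 ± 5.10 CPM in inducible lines (log2 change 1.59 ± 0.29; edgeR adjusted p = 0.0105) and from 5.55 ± 0.820 to 19.1 ± 4.20 CPM in negative lines (1.79 ± 0.36; 0.0184). Prkce, a protein kinase C that phosphorylates keratins, changed by 0.75 ± 0.12 (edgeR adjusted p = 0.00634) and 0.68 ± 0.15 (0.0292). The median of the 14 in the mean of both genotypes was 0.06.

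Among 19 transcription factors listed for simple epithelia 18 were tested. In the mean of both genotypes at 24 h 2 rose and 2 fell, where 18.7% of all features were called. With the replicate block 3 of 18 rose and 7 fell in that mean, where 36.1% of all features were called. Gata6, a factor of pancreatic epithelium, rose at 24 h in both genotypes, from 39.0 ± 0.587 to 54.6 ± 6.24 CPM in inducible lines (log2 change 0.49 ± 0.08; edgeR adjusted p = 0.00428) and by 0.39 ± 0.09 in negative lines (0.0372). Klf4, a factor of epithelial differentiation, fell by 0.50 in inducible lines (log2; SE 0.10; edgeR adjusted p = 0.0145). In negative lines its change of -0.37 ± 0.12 did not pass without the block (0.101, and 0.012 with it). Grhl2, which maintains the epithelial state, changed by -0.14 ± 0.04 in the mean of both (0.0282). With the replicate block 9 of 18 fell at 4 h in the mean of both, among them Ehf, Klf5, Sox9 and Klf4, and 0 rose, where 8.67% of all features were called. The genes named from the block fit at 4 h, and Krt4, Krt5, Krt6a, Nes and Nefl above, were chosen after their values were seen. No test of a list was run.

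**Figure D5:**
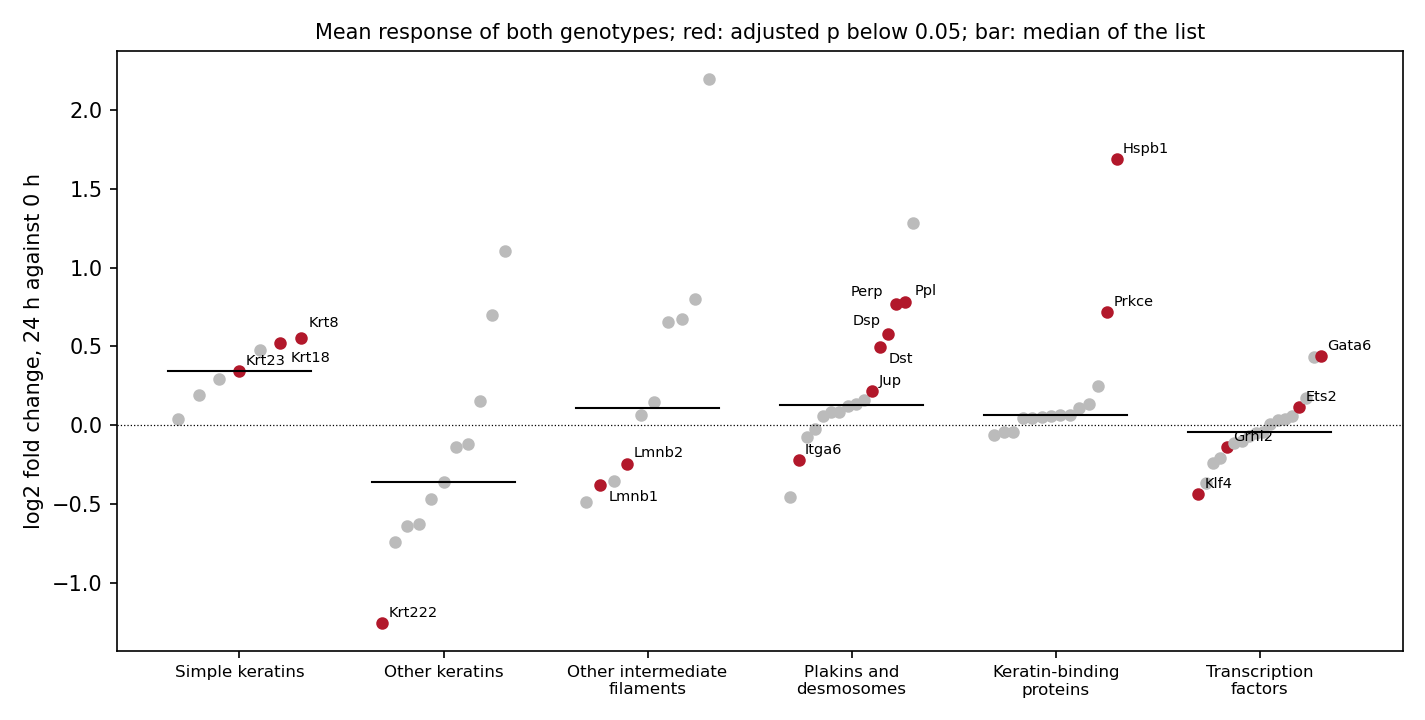
Log2 fold change at 24 h against 0 h, as the mean of both genotypes, for every tested gene of the simple keratins and 5 related lists; red points have an adjusted p below 0.05 in edgeR without the replicate block, and bars are medians. The median is 0.34 for the 7 simple keratins and -0.36 for the 11 other keratins. The latter is the value of Krt17, which averaged 0.149 CPM.

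Duct markers outside the members were higher at 24 h as well. The summed TPM of the 10 duct markers other than Krt7 and Krt19 was 2407 to 2809 at 0 h, 2528 to 3009 at 4 h and 3244 to 3573 at 24 h. It was highest at 24 h in all 5 lines, and its part in the keratin changes was not tested. At 4 h this sum was higher than at 0 h in all 5 lines, while all 7 members had log2 changes below 0 in both genotypes.

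Features with the most similar profiles were ranked by the root mean square difference of centred log2 CPM over the 15 libraries, among 9059 features with a mean of at least 10 CPM. For Krt8 they were Aldh3b1, an aldehyde dehydrogenase, and the small GTPases Rhob and Rhoc (differences of 0.07, 0.07 and 0.08). For Krt18 they were the ligand Wnt7b (0.06), Rhoc (0.07) and the tyrosine sulfotransferase Tpst2 (0.07). Rhoc was thus close to both chains of the pair. For Krt19 they were Ccnd1, cyclin D1 (0.06), Myo15b (0.06) and Plekhh1 (0.07), and for Krt7 Unc13d (0.10), Man2b2 (0.10) and Hpcal1 (0.11). Krt80 was closest to the receptor Tgfbr2 (0.10), Pcsk6 (0.12) and Sdc2 (0.12), and Krt23 to Eps8l3 (0.15), Chst8 (0.16) and Trim24 (0.16). No feature came as near to Krt20, whose closest were Chpt1 (0.24), Slc16a12 (0.27) and Lgals1 (0.32). Points share lines and times, so these are descriptions.

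Krt8, Krt18, Krt20, Krt23 and Krt80 each have 1 transcript in the files. Krt19-201, the coding transcript of Krt19, held 86.8 to 91.6% of its gene's estimated counts in a library. The counts of Krt7 were divided. The coding transcript Krt7-201 held 46.3 to 52.6%, the coding transcript Krt7-204 10.4 to 12.6%, and Krt7-202, annotated as a retained intron, 36.0 to 41.8%. The per-length level of Krt7 therefore depends on how counts were divided over its transcripts. Processed pseudogenes took few counts: Krt8-ps, 98.6% identical to Krt8 over 941 bases, had 0.066% of the count of Krt8, and Gm5200 had 0.00083% of that of Krt18.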

How the data were processed

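RNA of 15 organoid libraries was depleted of ribosomal RNA and sequenced in pairs, per the labels' protocols. Per the submitters' processing notes, which give tools without their roles, the authors' tools were kallisto 0.43.1, DESeq and DESeq2 1.18.1 and the build was GRCm38. Each deposited file gives, per its header, the estimated count, effective length and TPM of every transcript. Estimated counts of 109304 transcripts were summed per gene with GENCODE M21, which may not be the authors' release, and rounded. The 1295 identifiers without a match held 0.556 to 0.593% of a library's counts and were left out. Deposited TPM were summed per gene for levels.

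Group means of the 6 groups were fitted over all 15 libraries with edgeR 4.0.16 (R 4.3.3), after TMM scaling and its default expression filter, and compared with quasi-likelihood tests. In each of 11 comparisons, Benjamini-Hochberg adjustment ran over 16462 features, and an adjusted p below 0.05 was called. The biological coefficient of variation was 0.157, and 0.058 with the line as a replicate block. The same lines were sampled at each time, which pairs the libraries, and same-line libraries deviated together (correlations of 0.381 to 0.476 in inducible and 0.238 to 0.285 in negative lines). No fixed block is possible for genotype at 1 time, since each line has 1 genotype. Alternatives were that block, limma-voom with a random block (limma 3.58.1), DESeq2 1.42.0, other scaling, other filters, an effective length offset, only the groups compared, added pseudogene counts, and leaving out each library. A lone sample left in a group was assumed to vary like the other groups. The fit was tested on simulated data.

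Named genes were all members, up to 4 called genes per list and the 3 most similar features per member. The members and lists were chosen with earlier results of these data known. Some items are not reported here.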

Additional observations from a re-analysis of the deposited data

How the results depend on the processing

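At 24 h the count of members called in inducible lines was 2 of 7, and it was 5 with the replicate block and 0 in a fit of only the groups compared. Leaving out 1 library gave 0 to 2. In negative lines the count was 2, or 5 with the replicate block, and leaving out 1 library gave 0 to 1. In limma-voom, where the block is random, 3 were called in each genotype. In inducible lines Krt7 (adjusted p = 0.0717) and Krt20 (0.058), called with the fixed block, were not called with limma-voom. For the mean of both genotypes it was 3, against 6 with the replicate block and 5 with limma-voom. At 4 h the count was 0 in each case, and with the replicate block it was 1 in inducible lines, 1 in negative lines and 2 in their mean, where limma-voom gave 2 and DESeq2 gave 1. In each genotype alone limma-voom gave 0 at 4 h, with an adjusted p of 0.0761 for Krt23 in inducible lines. The cause was not tested. The replicate block changed no other call of a member, and libraries were left out only in the fit without it. The direction of the 24 h changes of Krt7, Krt8, Krt18, Krt19, Krt20 and Krt23 was the same under every alternative run.

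Log2 values that changed sign when 1 library was left out were all uncalled, with these ranges. In inducible lines at 4 h they were -0.21 to 0.076 for Krt7, -0.13 to 0.00065 for Krt8, -0.18 to 0.0074 for Krt18, -0.69 to 0.63 for Krt20 and -0.17 to 0.11 for Krt80. At 24 h Krt80 ranged from -0.16 to 0.069 in inducible lines, -0.021 to 0.22 in negative lines and -0.033 to 0.091 in their mean. The mean 4 h change of Krt20 was -0.53 to 0.12. Differences of responses at 4 h were -0.041 to 0.21 for Krt8, -0.031 to 0.18 for Krt18, -0.0066 to 0.26 for Krt19, -0.31 to 1.01 for Krt20 and -0.11 to 0.31 for Krt23. Those at 24 h were -0.22 to 0.058 for Krt7, -0.21 to 0.059 for Krt19, -0.23 to 0.98 for Krt20 and -0.27 to 0.19 for Krt23. Inducible against negative lines at 0 h gave -0.027 to 0.16 for Krt18, -0.14 to 0.13 for Krt19, -0.34 to 0.75 for Krt20 and -0.0068 to 0.40 for Krt23. At 4 h it gave -0.17 to 0.12 for Krt7 and -0.21 to 0.073 for Krt80, and at 24 h -0.16 to 0.0081 for Krt19 and -0.078 to 0.37 for Krt23. With the effective length offset the 0 h difference of Krt19 was 0.013 in place of -0.0037.

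The number of all features called also moved. In inducible lines at 24 h it was 812, against 3987 with the replicate block, 3399 with limma-voom, 1804 with DESeq2, 517 with the effective length offset, 65 with only the groups compared and 220 to 2002 without 1 library. In negative lines it was 625, against 3696, 3135, 1483, 392 and 1734 under these same alternatives and 54 to 129 without 1 library. For the mean of both genotypes it was 3081, against 5936 with the replicate block, 5585 with limma-voom and 1534 to 3738 without 1 library. At 4 h it was 49, 20 and 150, against 502, 336 and 1427 with the replicate block, 273, 163 and 1033 with limma-voom, and 143, 96 and 541 with DESeq2. For inducible against negative lines DESeq2 called 5 features at 0 h, 11 at 4 h and 14 at 24 h, against 0, 2 and 2.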
